A study of Mus musculus with 4 samples.

Results

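Among the conventional donor T cells recovered from the spleens of mice with graft-versus-host disease, 4699 cells carried the transcripts of the division machinery at a level that marks late G2 and mitosis. They were chosen as barcodes with 500 genes or more, no more than 10% of mitochondrial unique molecular identifiers (UMIs, each standing for 1 captured transcript molecule), CD45.1 antibody counts that exceed those of CD45.2 by more than 2.2 on the log2 scale, and at least 20 UMIs summed over Ccnb1, Ube2c and Cdc20. They made up 15.1% of the 31180 conventional cells and 13% of the 36140 barcodes that passed the cell filter. Late G2 and mitosis cannot be told apart by these transcripts, and the cells are called mitotic cells here as a short name for that choice. They were set against 8240 conventional cells in which the same 3 transcripts summed to 0 UMIs (marker-sum-0 cells), and against 1021 conventional cells with a sum of at most 2 but at least 20 UMIs of the replication helicase genes Mcm2 to Mcm7 (S-rich cells).

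The study asked how the receptors CD226 and TIGIT on regulatory T (Treg) cells bear on graft-versus-host disease. Lethally irradiated BALB/c mice (900 cGy) were given T cell-depleted marrow from C57BL/6 mice carrying both CD45.1 and CD45.2, together with CD45.2+ CD45.1- C57BL/6 Treg cells sorted from spleen as CD4+ Foxp3-GFP+ CD25hi. The Treg cells were CD226-/- TIGIT+/+ (CD226KO library), CD226+/+ TIGIT-/- (TIGITKO), CD226-/- TIGIT-/- (DoubleKO) or CD226+/+ TIGIT+/+ (WT). Conventional CD45.1+ CD45.2- CD4+ and CD8+ T cells followed 2 days later, and donor T cells (PI- H-2Kb+ TCRb+) were sorted from recipient spleens 8 days after that induction. The mitotic cells are therefore wild type for both receptors in all 4 groups, and only the Treg cells transferred beside them differ. Each genotype is 1 library made from a pool of 3, and the record does not say of what. The file headers put the CD226KO and WT libraries on lane 3 and the TIGITKO and DoubleKO libraries on lane 4, so lane and TIGIT status cannot be told apart.

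T cells that meet alloantigen divide many times within days, and mitosis is the step at which the copied chromosomes are shared out. Cyclin B1, the product of Ccnb1, activates the kinase CDK1 to start it. CDC20 then turns on the anaphase-promoting complex, a ubiquitin ligase, and UBE2C is the ubiquitin-conjugating enzyme that primes its substrates, cyclin B1 among them, for destruction so that sister chromatids separate and the cell exits mitosis. Genes of this machinery are transcribed mostly in G2, whereas genes for DNA replication are transcribed earlier, from late G1 into S phase.

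The 3 genes of the rule were unequal contributors. A mitotic cell held a median of 22 Ube2c UMIs in CD226KO, 20 in TIGITKO, 22 in DoubleKO and 24 in WT, against 5, 5, 5 and 6 UMIs of Ccnb1 and 5, 4, 4 and 5 of Cdc20. Ube2c was the largest of the 3 in 98.9% to 99.4% of the cells of a library, so the choice was close to a choice on Ube2c. All 3 transcripts were present in 1146 of 1175 mitotic cells in CD226KO, 1164 of 1200 in TIGITKO, 1120 of 1152 in DoubleKO and 1142 of 1172 in WT. The median sum was 32, 28, 32 and 34.5 UMIs, and the highest sum in a cell was 90, 93, 110 and 134.

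The threshold cut through a continuous range. There were 670 mitotic cells with a sum of 20 to 22 and 762 conventional cells just below, with 17 to 19. Cenpf, a kinetochore protein gene outside the rule, stood at 439, 413, 402 and 320 CPM (UMIs per 1000000 UMIs of all genes in the class) just inside and at 353, 382, 322 and 266 CPM just outside. These and all later sets of 4 values list the CD226KO, TIGITKO, DoubleKO and WT libraries. On the antibody side, 452 mitotic cells had a log2 ratio between 2.2 and 2.7, and 149 cells with enough marker UMIs lay between 1.7 and 2.2.

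Because the sum was not scaled to the size of the cell, depth is part of the choice. Mitotic cells held a median of 13690, 12412, 13065 and 15411 UMIs, against 5794, 4848, 5870 and 6030 in marker-sum-0 cells and 11794, 11459, 12418 and 12722 in S-rich cells. They had 3375, 3199, 3277 and 3569 genes detected, against 1935, 1742, 1986 and 2010. Mitochondrial UMIs were 3.29% to 3.52% of the total in mitotic cells over the 4 libraries, against 4.27% to 4.43% in marker-sum-0 cells. Results are therefore also given for 409, 409, 437 and 381 mitotic cells per library matched to as many marker-sum-0 cells on total UMIs (medians of 9590, 8437, 9733 and 10585, against 9517, 8345, 9703 and 10312). These were a shallower part of the 1175, 1200, 1152 and 1172 mitotic cells. The marker-sum-0 cells kept were a deeper part of their class, so matching moved both sides of a comparison. Values on matched cells, or at equal depth, describe those parts and not all mitotic or all marker-sum-0 cells. In that matched setting 2415 of 9271 genes were higher (26%) and 2383 lower (25.7%), with a median log2 fold of 0.01, and each count on matched cells below is to be read against those shares.

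The labelled cell type held against its markers. In mitotic cells the T cell receptor chain gene Trac stood at 584, 473, 607 and 592 CPM and the CD3 gene Cd3e at 239, 216, 241 and 223 CPM. Foxp3, the Treg lineage factor, was at 3.14, 1.92, 2.13 and 2.34 CPM in mitotic cells, against 60.8, 47.5, 58.3 and 54.9 CPM in cells with a log2 antibody ratio of 0 or less, the Treg donor side. The targeted gene Cd226 read 6.71 and 5.57 CPM on that Treg side in CD226KO and DoubleKO, against 37.0 and 32.4 CPM in TIGITKO and WT, and was at 81.5 to 90.9 CPM in the mitotic cells of all 4 libraries. Tigit read 5.27, 7.25, 6.00 and 8.56 CPM on the Treg side, from 11, 20, 14 and 24 UMIs. Counts this low cannot show whether it dropped in the 2 libraries labelled TIGIT-/-. Reads at the 3' end also cannot check a deletion that lies elsewhere in the gene. Across libraries 131 cell barcodes were shared by 2 of them, 34 of these in mitotic cells.

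Markers of other cell types, summed by list, were mostly no higher in mitotic cells than in marker-sum-0 cells. Neutrophil markers, and the NK list that T cells share, were higher. Over the 4 libraries the summed level of B and plasma cell markers was 67.9 to 103 CPM in mitotic cells and 115 to 125 CPM in marker-sum-0 cells, where Ms4a1 was at 0. Macrophage and monocyte markers were at 108 to 138 CPM, against 127 to 142 CPM, erythroid markers at 23.1 to 61.0 CPM, against 23.9 to 297 CPM, and gamma-delta and NKT markers at 15.3 to 23.4 CPM, against 29.8 to 35.1 CPM, with Trdv4 at 0. Single genes departed from these sums. Lyz2 of the macrophage list was higher in mitotic cells by log2 2.79, where 2 of 10 tested genes were higher and 2 lower. Jchain of the B and plasma list was higher by 1.37, where 2 of 3 were higher and 1 lower. Platelet markers were at or below 0.110 CPM in mitotic cells, with Pf4 and Gp1bb at 0. The NK list, at 5968 to 7719 CPM against 4329 to 5078 CPM, is carried by Gzma and Nkg7, which T cells also express, and its Klra8 and Klra4 were at 0. Neutrophil markers were at 6.35 to 256 CPM in mitotic cells, against 3.73 to 5.46 CPM. For S100a8 among them, 1 barcode held 759 of 784 UMIs in the mitotic cells of CD226KO, 588 of 1064 in TIGITKO, 3 of 42 in DoubleKO and 504 of 525 in WT, and its log2 fold of 4.30 came to 0.15 with cells thinned to 5000 UMIs, where it no longer passed the test. Doublets were not called, and their part was not tested. At least 2 UMIs each of Cd4 and of Cd8a plus Cd8b1 were seen in 7.32%, 7%, 7.55% and 5.97% of mitotic cells, against 0.331%, 0.724%, 0.719% and 0.580% of marker-sum-0 cells, and after thinning to 5000 UMIs in 0.769%, 0.336%, 0.610% and 0.342%, against 0.148%, 0.184%, 0.202% and 0.290%.

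Mitotic cells were 15.2% of the conventional cells in CD226KO (95% exact binomial interval 14.4 to 16), 13.7% in TIGITKO (13 to 14.4), 14.0% in DoubleKO (13.2 to 14.7) and 18.3% in WT (17.3 to 19.2). The interval of WT lies above the other three, but these intervals cover counting error only and each genotype has no replicate. The libraries with the highest and the lowest share were also the deepest and the shallowest, with a median of 8117, 7112, 8220 and 9295 UMIs over all conventional cells. With each cell thinned to 5000 UMIs and the threshold lowered to 10, the shares were 14.7% in CD226KO, 15.8% in TIGITKO, 13.8% in DoubleKO and 15.3% in WT, so the order of the libraries changed. Thinning left out 1423, 2314, 1366 and 860 shallower cells.

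The mitotic share was higher in CD8 than in CD4 cells by the stated rule, and lower once cells were thinned to equal depth; over 4 libraries the exact permutation test cannot pass 0.05 for either. Of CD8 cells 19.6%, 16.8%, 16.2% and 21.4% were mitotic (509 of 2600, 487 of 2902, 552 of 3415 and 450 of 2098), against 15.7%, 15%, 14.7% and 19.4% of CD4 cells (487 of 3098, 465 of 3100, 414 of 2813 and 533 of 2750). CD8 was higher in 4 of 4 libraries, with a mean ratio of 1.14 (log2 0.19, SD 0.085, n = 4) and a two-sided exact permutation p of 0.13, the smallest that 4 libraries allow. Thinned to 5000 UMIs, 14.1%, 13.4%, 12.6% and 13.2% of CD8 cells and 16.2%, 18%, 15.6% and 17.2% of CD4 cells were mitotic. The direction turned in 4 of 4 libraries, with a mean log2 ratio of -0.33 (SD 0.097, same exact permutation p of 0.13). CD8 mitotic cells were also the deeper ones, with a median of 15487, 15359, 14785 and 18295 UMIs against 13301, 11779, 12416 and 14559 in CD4 mitotic cells. Cells with no lineage transcript, or equal counts, were mitotic in 8.76%, 8.94%, 9.21% and 12.1% of cases by the rule on all UMIs. Thinned to 5000 UMIs, 13.3%, 16.2%, 13.4% and 14.8% of them were mitotic.

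**Figure D1:**
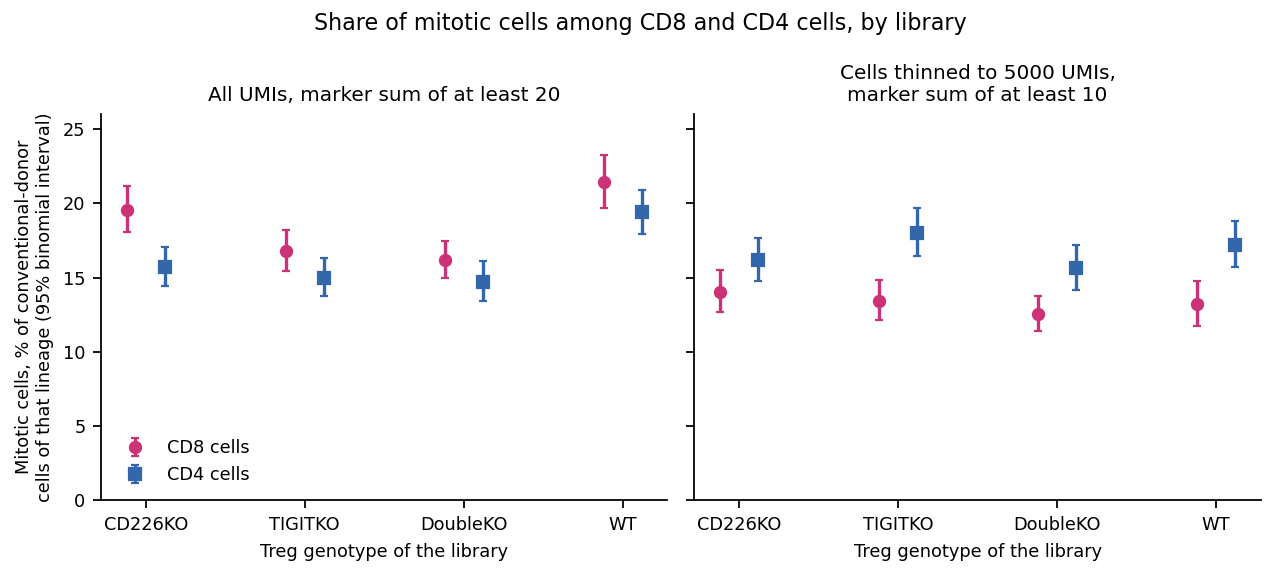
Mitotic cells as a percentage of CD8 and CD4 conventional cells in each library, with 95% exact binomial intervals as bars, by the rule on all UMIs (left) and after thinning each cell to 5000 UMIs (right). CD8 points lie above CD4 points in all 4 libraries on the left, such as 19.6% against 15.7% in CD226KO, and below them on the right, 14.1% against 16.2%.

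Set against marker-sum-0 cells over the 4 libraries, the mitotic machinery rose as a block. Of 10800 genes tested with edgeR's quasi-likelihood test with library as a block, 3393 were higher (31.4%) and 3342 lower (30.9%) at a Benjamini-Hochberg adjusted p of at most 0.05, and 835 (7.73%) and 1091 (10.1%) of them by at least 1.5-fold. A call is thus common here, and the members' size of change says more than their count. The share of all tested genes whose groups did not overlap between libraries is not given. A lack of overlap, here and in later comparisons, therefore describes the named genes alone. The cells were picked on 3 transcripts that vary together with these genes, so the counts below describe the picked cells and are no independent evidence of division. The SE beside a fold was obtained as its absolute log2 value divided by the root of F, and is not one that the model fits.

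The kinases and cyclins that drive entry came first. All 17 tested genes of that list were higher, with a median log2 fold of 3.05 against -0.02 for all genes. Plk1, the kinase that matures centrosomes and helps to activate CDK1, was at 187, 180, 171 and 178 CPM in mitotic cells, against 6.90, 10.2, 8.33 and 5.47 CPM in marker-sum-0 cells (log2 4.55, SE 0.077, edgeR quasi-likelihood adjusted p = 6.45e-17). Cdc25c, the phosphatase that removes the inhibitory phosphate from CDK1, was at 30.4, 23.6, 27.7 and 27.8 CPM, against 0.531, 0.891, 1.27 and 0.960 CPM (log2 4.92). Cdk1 itself, named after its value was seen, was at 492, 462, 494 and 467 CPM, against 50.6, 65.8, 62.9 and 53.4 CPM. None of these groups overlapped. The lowest of the list, Cdc25b and Pbk, still stood at log2 1.77 and 1.43.

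Spindle and kinetochore genes held the highest single folds. All 32 tested spindle and motor genes were higher, with a median of 3.43, from 4.92 for Aspm, which holds spindle poles together, to 0.97 for Numa1, whose product also lies in the interphase nucleus. Aspm was at 99.7, 85.2, 100 and 94.6 CPM in mitotic cells, against 2.5, 4.21, 2.82 and 3.36 CPM. Of the centromere and kinetochore list, 30 of 30 tested genes were higher with a median of 2.07. Cenpf was at 504, 457, 521 and 448 CPM, against 8.49, 11.3, 10.7 and 9.70 CPM (log2 5.62, SE 0.053, edgeR quasi-likelihood adjusted p = 2.86e-19), the highest fold among the genes tested. Cenpe, the kinesin that brings chromosomes to the metaphase plate, was at 307, 301, 316 and 289 CPM, against 15.8, 21.1, 18.8 and 16.6 CPM. Zwint, a kinetochore scaffold gene, was the lowest of the list at 0.23, and at -0.22 when cells were matched on UMIs.

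Chromosome structure and cytokinesis genes rose as well. All 16 tested condensation and chromosome periphery genes were higher, with a median of 1.7. Top2a, the topoisomerase that untangles sister DNA, was at 907, 888, 887 and 847 CPM in mitotic cells, against 118, 142, 148 and 114 CPM (log2 2.79, SE 0.047, edgeR quasi-likelihood adjusted p = 6.20e-17). All 17 tested passenger complex and cytokinesis genes were higher with a median of 2.80, among them Cdca8, the borealin gene, at 514, 485, 524 and 474 CPM, against 40.2, 52.6, 49.0 and 44.0 CPM. Rhoa, the GTPase of the contractile ring with many other uses, rose least, by 0.21. Replication-dependent histone genes, whose transcripts are read here at a polyadenylated 3' end, were higher in 52 of 53 tested cases with a median of 1.88.

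Genes of the anaphase-promoting complex moved unevenly. The list gave 17 higher and 1 lower of 21 tested, with a median of only 0.57. The highest were Espl1, the separase that cuts cohesin, at 31.0, 29.0, 28.8 and 29.8 CPM in mitotic cells, against 1.97, 3.48, 2.68 and 1.73 CPM (log2 3.6), and Fzr1, the CDH1 activator that takes over from CDC20 at mitotic exit, at 115, 109, 112 and 108 CPM, against 22.7, 24.5, 21.7 and 23.8 CPM (log2 2.30). Against S-rich cells Fzr1 stood at 2.41 and Espl1 at 2.26.

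**Figure D2:**
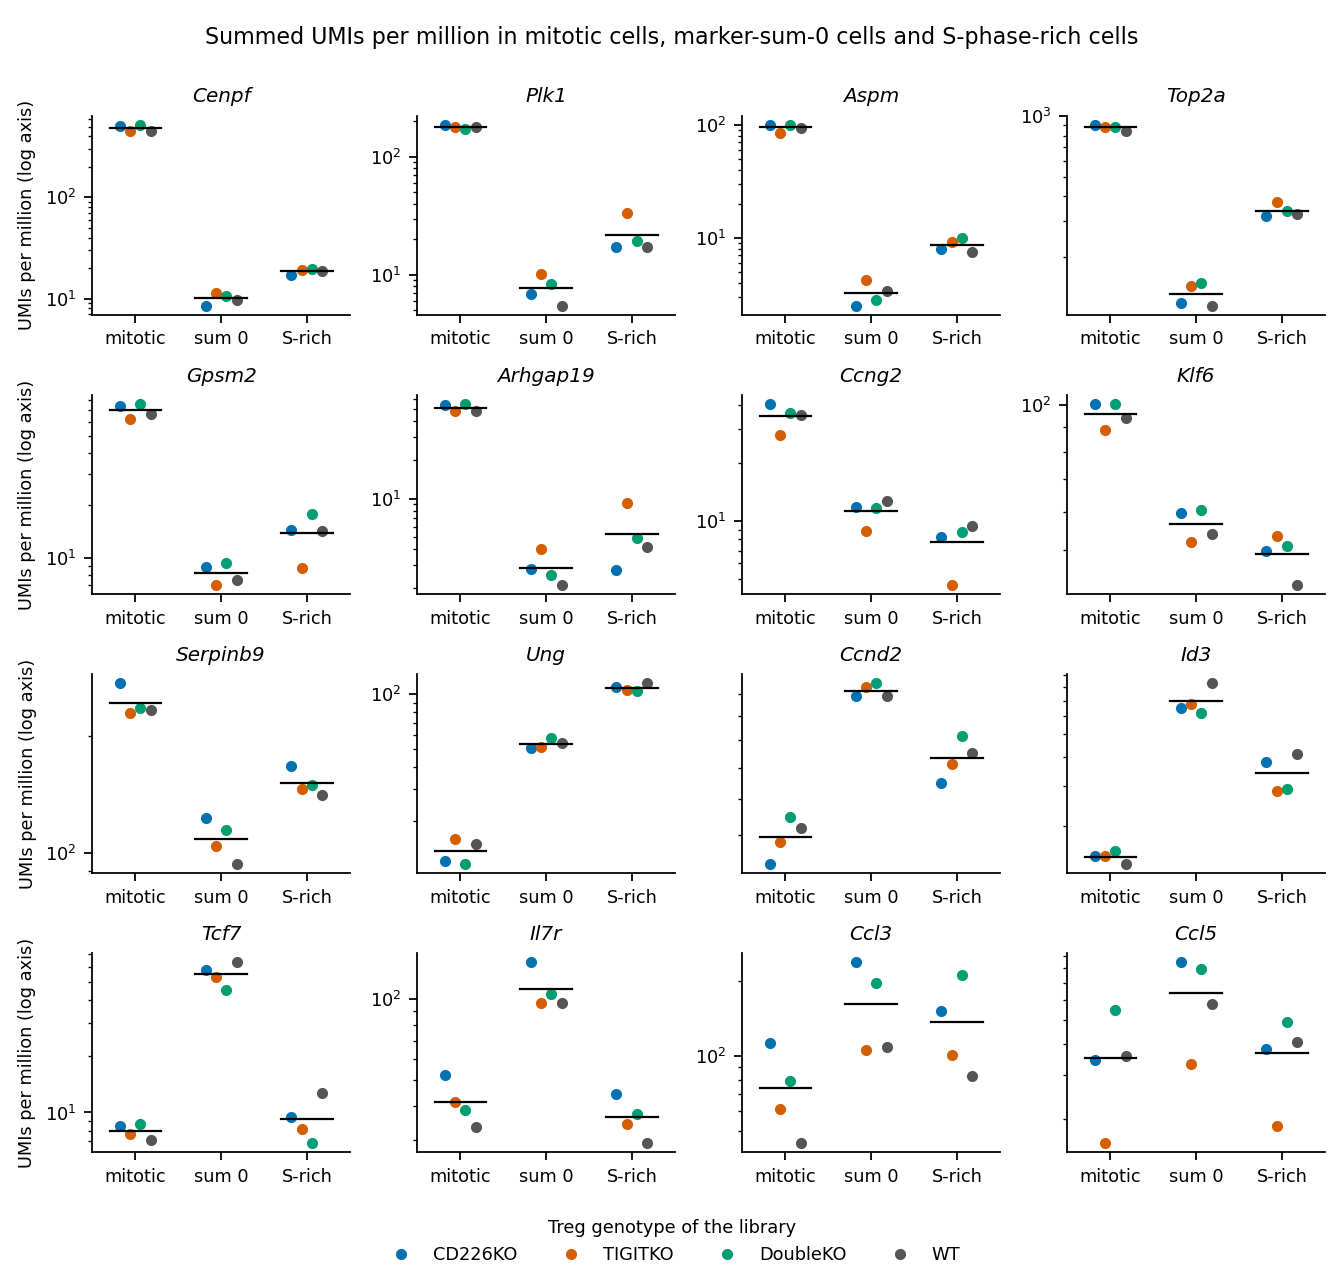
CPM (log axis) of 16 genes in mitotic, marker-sum-0 and S-rich cells, with 1 point per library and a line at the mean. Cenpf, Plk1, Aspm and Arhgap19 lie at least 10-fold higher in mitotic cells than in marker-sum-0 cells, Ung lies lowest in mitotic cells, and Ccl5 points of the classes overlap.

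Genes of DNA replication were split, and matching on UMIs turned the list round. Of 74 tested, 38 were higher and 20 lower than in marker-sum-0 cells, with a median of 0.14. On cells matched for UMIs 9 were higher and 55 lower, with a median of -0.88. Ung, a uracil-DNA glycosylase gene of early S phase, was at 12.1, 16, 11.6 and 14.9 CPM in mitotic cells, against 50.6, 51.6, 57.7 and 53.7 CPM (log2 -1.94, SE 0.078, edgeR quasi-likelihood adjusted p = 3.85e-12). In the matched cells it was at 1.94, 1.65, 1.11 and 2.63 CPM, against 89.0, 80.9, 93.1 and 84.6 CPM, and S-rich cells held 109, 106, 105 and 115 CPM. The marker-sum-0 cells kept by matching thus carried more Ung than all marker-sum-0 cells and less than S-rich cells. The mitotic cells kept by matching carried less than all mitotic cells. Ccne2, a cyclin of S phase entry, was at 4.74, 7.34, 5.17 and 5.60 CPM, against 16.2, 17.3, 17.4 and 12.1 CPM. Fancd2, of the crosslink repair pathway, was the highest of the list at log2 1.99, followed by Esco2, a cohesin acetyltransferase gene, at 1.48. Against S-rich cells, whose choice on Mcm2 to Mcm7 sets the direction of this list, 62 of 68 replication genes were lower and 3 higher.

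The levels followed the marker sum as a slope and then flattened. From a sum of 0 through 1 to 4, 5 to 9, 10 to 19, 20 to 39 and 40 to 79, Cenpf averaged 10.0, 46.4, 120, 250, 468 and 506 CPM over the 4 libraries, and Top2a 130, 275, 455, 718, 894 and 859 CPM. Mcm5, a replication helicase subunit, peaked in the middle, at 132, 178, 195, 188, 150 and 142 CPM. Ccne2 peaked earlier, at 15.7, 21.7, 19.1, 12.9, 5.94 and 5.53 CPM. Median UMIs per cell rose over the same bins, from 5794 to 16626 in CD226KO, and cells at a sum of 80 or more numbered only 1 to 15 per library.

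**Figure D3:**
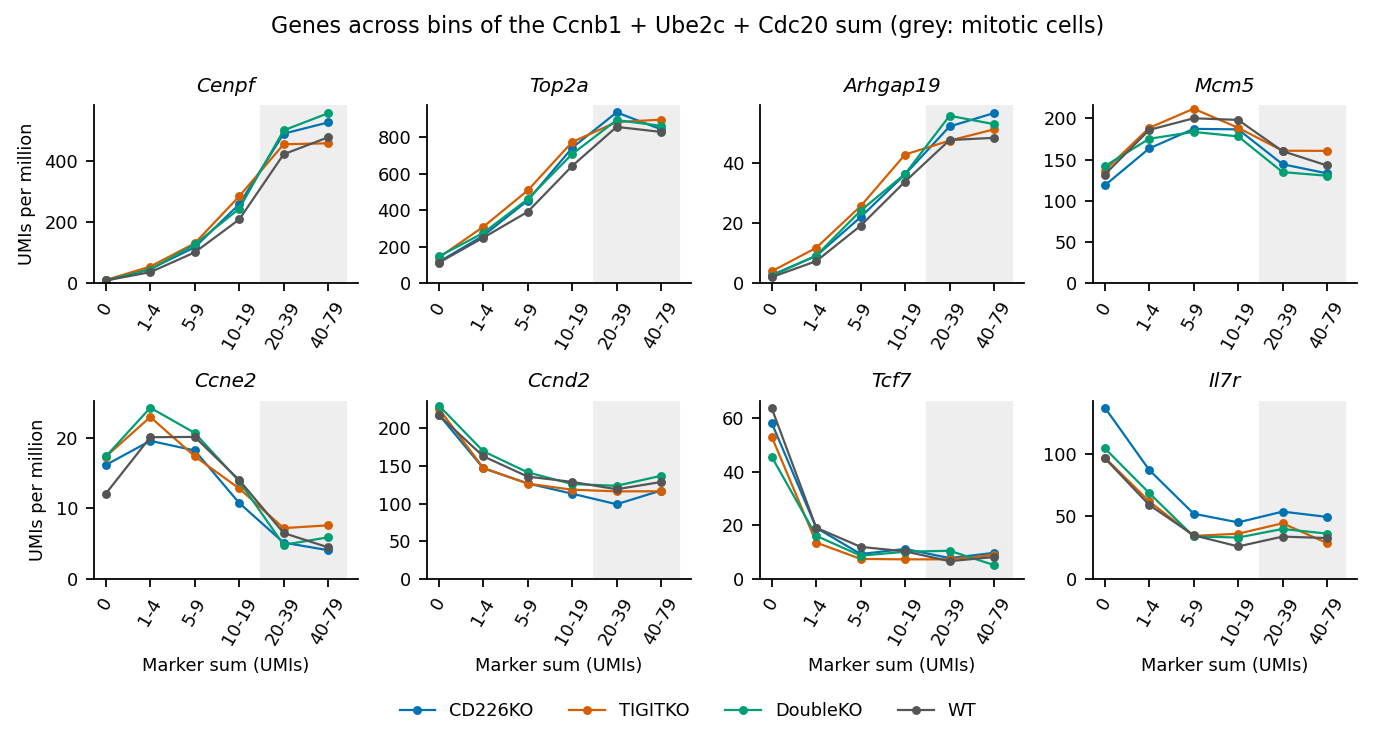
CPM of 8 genes across bins of the summed Ccnb1, Ube2c and Cdc20 UMIs per cell, with 1 line per library and the mitotic bins shaded grey. Cenpf climbs to a mean of 468 CPM at a sum of 20 to 39 and changes little at 506 CPM beyond, and Tcf7 drops between a sum of 0 and a sum of 5 to 9, where it averages 9.40 CPM.

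Among regulators of G1, Ccng2 was higher and the D-type cyclins Ccnd2 and Ccnd3 moved in opposite directions. The list of G1 cyclins and CDK inhibitors had 4 higher and 4 lower of 15 tested, with a median of 0.04. Ccng2, an atypical cyclin gene induced in arresting cells in other settings, was at 40.5, 27.9, 36.3 and 35.3 CPM in mitotic cells, against 11.8, 8.83, 11.6 and 12.7 CPM (log2 1.68, SE 0.065, edgeR quasi-likelihood adjusted p = 2.69e-12). It was further apart on matched cells (2.69) and against S-rich cells (2.12). Ccnd2 was at 106, 116, 129 and 123 CPM, against 218, 226, 230 and 217 CPM (log2 -0.88), while Ccnd3, the D cyclin gene of lymphocytes, was higher by 0.27. Cdkn1a, the p21 inhibitor gene, was lower by 0.61, and within CD8 cells at -0.12 it did not pass the test (adjusted p = 0.517).

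Outside the cell cycle lists, other genes tied to division stood out first. Prr11 was at 43.5, 38.4, 41.3 and 41.0 CPM in mitotic cells, against 1.97, 2.51, 1.76 and 2.30 CPM (log2 4.31). Arhgap19, a GTPase-activating protein gene of cytokinesis, was at 54.1, 48.3, 54.7 and 48.1 CPM, against 2.81, 4.05, 2.54 and 2.11 CPM (log2 4.18). Gpsm2, which links cortical force generators to spindle poles, was at 73.8, 62.8, 76.1 and 66.7 CPM, against 8.87, 6.96, 9.31 and 7.39 CPM (log2 3.13). These groups did not overlap in any of the 3 genes. Spdl1, a kinetochore dynein adaptor gene (3.02), Diaph3, a formin gene (2.31), Poc1a, of centrioles (2.23), Rad21, the cohesin subunit that separase cuts (1.98), and Odf2, of centriole appendages (1.95), followed. Tnfaip8l1 (2.03) and Miip (1.84) also passed, and both were further apart on matched cells (2.97 and 2.56) and against S-rich cells (2.86 and 2.03).

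Single genes of the T cell lists rose while most of their list did not, since Klf6 and Foxo1 belong to the naive and memory regulators (4 higher, 18 lower) and Ifngr1 to the Th1 and inflammatory list (6 higher, 12 lower). Klf6, a zinc-finger transcription factor gene, was at 100.5, 88.8, 100.4 and 93.8 CPM in mitotic cells, against 59.5, 51.9, 60.4 and 54.0 CPM (log2 0.80, SE 0.034, edgeR quasi-likelihood adjusted p = 1.03e-11). It came to 1.21 on matched cells and 1 against S-rich cells. Ifngr1, the ligand-binding chain gene of the interferon-gamma receptor, was at 389, 311.1, 408 and 381 CPM, against 257, 204, 255 and 254 CPM (log2 0.65; 0.93 matched; 0.81 against S-rich cells). Serpinb9, whose product inhibits granzyme B inside killer cells, was at 274, 229, 236 and 233 CPM, against 123, 104, 114 and 93.6 CPM (log2 1.19, SE 0.038; 0.74 matched; 0.68 against S-rich cells). No library overlapped between the classes for these 3 genes. Serpinb9 belongs to the cytotoxicity list, which depended on lineage as given below, and its folds here were not taken within a lineage. Foxo1, a transcription factor gene of resting lymphocytes, rose by 0.39, and by 0.75 on matched cells. Emp3, a membrane protein gene of the galectin and cytoskeleton list, rose by 0.65, and by 0.94 on matched cells.

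Cytotoxicity genes depended on lineage. The list had 10 higher and 3 lower of 17 tested with a median of 0.39, but within CD8 cells 3 were higher and 10 lower with a median of -0.26, and within CD4 cells 9 and 5 with a median of 0.21. Over all genes the shares higher and lower were 19.7% and 19.3% within CD8 cells, and 26.9% and 27.2% within CD4 cells. CD8 cells made up 51.1%, 51.2%, 57.1% and 45.8% of lineage-resolved mitotic cells, against 28.4%, 33.2%, 38.0% and 25.2% of marker-sum-0 cells. Gzma, the granzyme A gene, was at 4637, 4109, 5644 and 4605 CPM in mitotic cells, against 2807, 3026, 3408 and 2782 CPM (log2 0.69). It turned to -0.29 within CD8 cells and was 0.44 within CD4 cells. Prf1, the perforin gene, was at 129, 97.9, 129 and 99.8 CPM, against 67.9, 51.6, 65.1 and 54.7 CPM, and was higher within either lineage, by 0.30 in CD8 and 0.47 in CD4 cells. Srgn, the granule proteoglycan gene, was lower by 0.71.

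Genes of resting and memory T cells were lower in mitotic cells over all cells, but as a list not on the cells kept by matching. Of 23 naive and memory regulators tested, 18 were lower and 4 higher, with a median of -0.69. On matched cells 4 of 21 were lower and 12 higher with a median of 0.27, and against S-rich cells 2 of 22 were lower and 11 higher. Tcf7, the transcription factor gene of naive and memory cells, was at 8.43, 7.69, 8.71 and 7.16 CPM in mitotic cells, against 58.0, 52.9, 45.4 and 63.5 CPM (log2 -2.74, SE 0.085, edgeR quasi-likelihood adjusted p = 1.43e-13). In matched cells it was at 8.99, 11, 13.1 and 11.5 CPM, against 21.9, 18.7, 14.4 and 16.8 CPM (log2 -0.64). The marker-sum-0 cells kept by matching thus held less Tcf7 than all marker-sum-0 cells. Il7r, the interleukin-7 receptor gene, was at 52.0, 41.3, 38.6 and 33.4 CPM, against 137, 97.0, 104 and 96.5 CPM (log2 -1.36), and its matched difference of -0.02 did not pass the test (adjusted p = 0.824). The Il7r groups were apart over all cells and overlapped on matched cells. Bach2, a repressor gene of effector programs, was at 0.291 to 0.535 CPM, against 2.67 to 3.41 CPM.

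Several other lowered genes kept a distance at equal depth, where cells were matched on UMIs but not on lineage. CD8 cells were a larger part of lineage-resolved mitotic cells than of marker-sum-0 cells, as given above. Id3, a helix-loop-helix inhibitor gene of naive and memory cells, was at 14.8, 14.9, 15.7 and 13.7 CPM in mitotic cells, against 64.9, 67.8, 62.0 and 83.4 CPM (log2 -2.20, SE 0.073, edgeR quasi-likelihood adjusted p = 3.33e-13; -1.09 matched; -1.24 against S-rich cells). Bcl2l11, the pro-apoptotic BIM gene, was at 11.7, 8.92, 11.6 and 9.83 CPM, against 29.2, 22.8, 34.1 and 24.2 CPM (log2 -1.35; -1.33 matched; -0.86 against S-rich cells). For both genes the groups did not overlap in any of these 3 settings. Tbc1d4, a Rab GTPase-activating protein gene, was at 8.05, 10.3, 8.71 and 8.28 CPM, against 51.8, 63.0, 44.8 and 56.7 CPM (log2 -2.58; -1.09 matched). Bbc3, the pro-apoptotic PUMA gene, was lower by 1.54, and its 0.18 against S-rich cells did not pass. Slfn5 (-2.80), Izumo1r (-2.37), Tnfsf8 (-1.88), Ypel3 (-1.74) and Ltb, the lymphotoxin beta gene (-1.31), were lower too. Of those 5 genes, Ypel3 did not pass on matched cells (-0.14), and against S-rich cells Izumo1r alone passed (-0.46).

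Outside the cell cycle lists, 4823 genes that averaged 20 CPM or more were tested both ways. Of these, 2275 were called both over all cells and over matched cells, 1811 with the same sign and 464 with the opposite sign. Of the 219 that were at least 1.5-fold higher over all cells, 180 were called higher on matched cells and 10 lower. Of the 125 at least 1.5-fold lower, 77 were called lower and 11 higher.

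Chemokine genes were lower, all 6 of 6 tested, with a median of -1.11. Ccl3, an inflammatory chemokine gene, was at 112, 60.9, 78.8 and 44.4 CPM in mitotic cells, against 237, 105, 195 and 108 CPM (log2 -1.09, SE 0.059, edgeR quasi-likelihood adjusted p = 1.86e-10). It was at 55.9, 21.7, 40.1 and 14.1 CPM in matched cells, against 486, 208, 301 and 167 CPM (log2 -3.12). Ccl1, a CCR8 ligand gene, was at 32.5, 87.3, 63.6 and 78.2 CPM, against 183, 360, 183 and 162 CPM (log2 -1.72). Levels differed more between libraries than for the mitotic genes, yet each library had less Ccl3 and Ccl1 in its mitotic cells. Within CD8 cells, Ccl3 at -0.24 did not pass the test (adjusted p = 0.057) and Ccl1 was higher, by 0.84. Ccl5 was at 346, 160, 545 and 359 CPM, against 845, 333, 796 and 578 CPM (log2 -0.85), groups that overlap across libraries, and turned to 0.29 on matched cells. Cxcr5, the follicle-homing receptor gene, was at 0.772, 0.874, 0.393 and 1.17 CPM, against 10.2, 10.3, 6.42 and 13.9 CPM. It belongs to the list of chemokine receptors and homing genes, which as a whole had 8 higher and 9 lower of 20.

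Interferon-stimulated genes were lower in 37 of 41 tested cases with none higher and a median of -0.68, yet on matched cells 11 were higher and 10 lower of 37 with a median of -0.02, shares near those of all genes. The Th1 and inflammatory cytokine list had 6 higher and 12 lower of 22 (-0.32; matched -0.16), inhibitory and costimulatory receptors 5 and 14 of 22 (-0.39; matched -0.18), and T cell receptor signalling genes 4 and 18 of 32 (-0.18; matched -0.02). Ribosome biogenesis genes were 9 higher and 18 lower of 40 (-0.11), and on matched cells 0 higher and 40 lower (-0.86). Heat shock genes were 14 higher and 1 lower of 21 (0.17), and on matched cells 0 higher and 17 lower of 20 (-0.31), with Hsp90aa1, a cytosolic chaperone gene, at 0.74 over all cells and -0.29 on matched cells. Sterol synthesis and amino acid transport genes were 10 higher and 8 lower of 28, and on matched cells 2 and 18. Cytosolic ribosomal protein genes were 3 higher and 74 lower of 79 (-0.20), and on matched cells 0 and 79 (-0.26). Respiratory chain genes were near even, at 26 higher and 20 lower of 72.

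**Figure D4:**
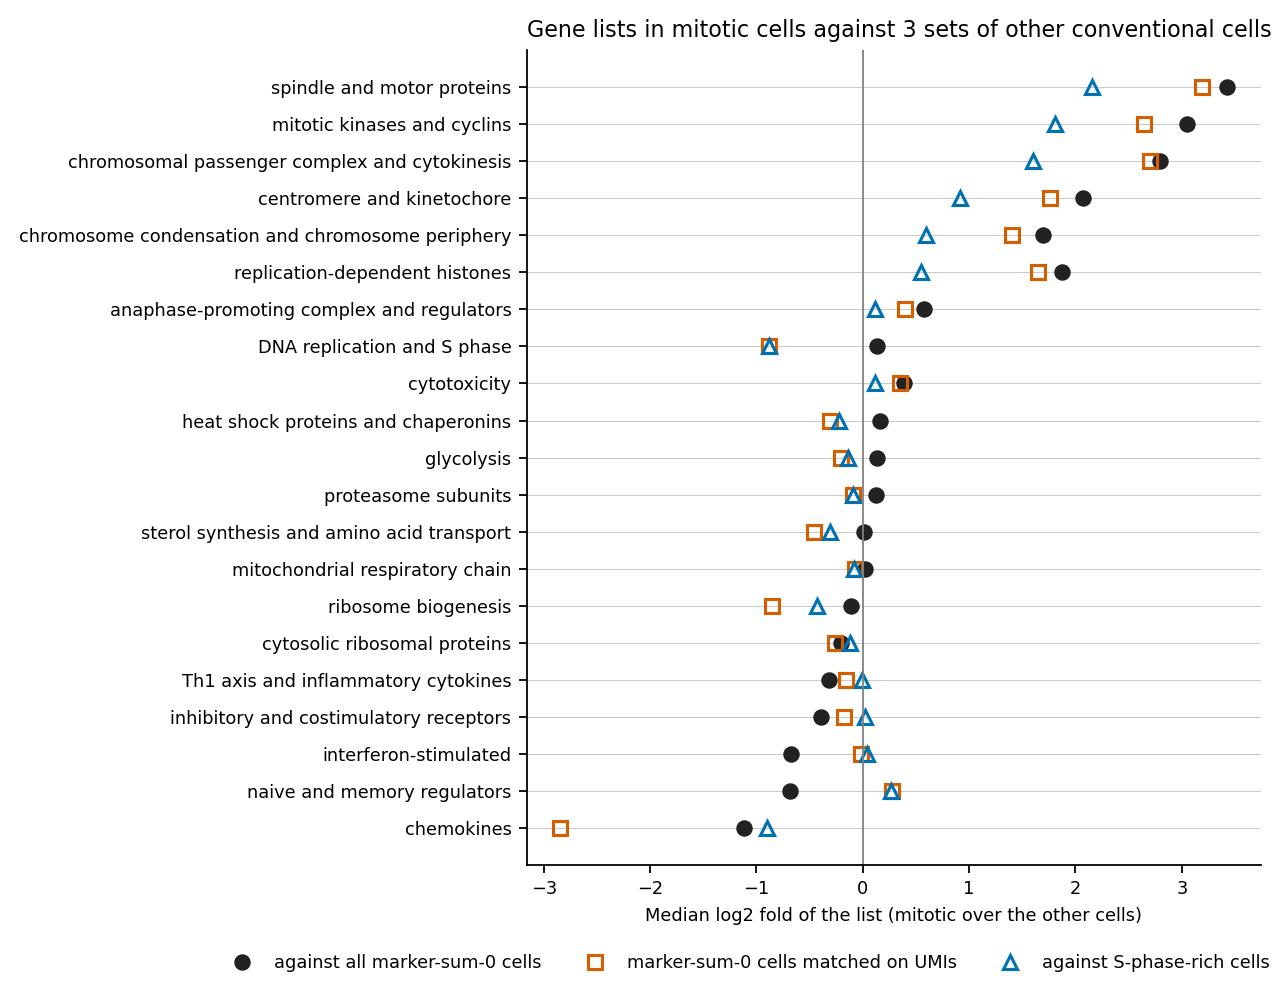
Median log2 difference of 21 gene lists in mitotic cells over marker-sum-0 cells (all cells, and cells matched on total UMIs) and over S-rich cells. Spindle genes lie at 3.43, 3.19 and 2.16, while the S phase list lies at 0.14 over all marker-sum-0 cells and at -0.88 in the other settings.

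S-rich cells were nearer to mitotic cells in UMIs per cell than marker-sum-0 cells were. Of 10294 genes tested by the same method, 2348 were higher (22.8%) and 2459 lower (23.9%), of which 655 (6.36%) and 755 (7.33%) by at least 1.5-fold. The median over all genes was 0.00. Spindle genes were higher in 32 of 32 cases (median 2.16), kinases and cyclins in 16 of 17 with 1 lower (1.81), and centromere genes in 24 of 30 with 4 lower (0.92). Replication genes had a median of -0.88, with Cdk2, the S phase kinase gene, at 21.2, 21, 19.3 and 23.7 CPM in mitotic cells, against 43.0, 42.9, 44.8 and 45.7 CPM in S-rich cells. Ribosome biogenesis genes were lower in 37 of 40 cases with none higher (-0.43), such as Gnl3, the nucleostemin gene, at 45, 54.2, 52.3 and 49.9 CPM, against 80.8, 95.6, 111 and 103 CPM. Heat shock genes were lower in 18 of 21 with none higher (-0.23). Zmynd19 was at 10.3, 14.6, 12.9 and 12.1 CPM, against 50.6, 48.6, 53.5 and 54.6 CPM. Mb21d1, the gene of the DNA sensor cGAS, was at 8.27, 9.15, 7.64 and 8.52 CPM, against 32.0, 33.6, 36.0 and 32.5 CPM. Ccl4 was at 160, 94.1, 139 and 79.1 CPM, against 307, 160, 298 and 156 CPM (log2 -0.97), overlapping across libraries at 1 point but lower in each. S-rich cells carry the widest counting error, since mitotic cells held 17155884 to 20542681 UMIs per library, against 1726682 to 4244652 in S-rich and 10413526 to 14172366 in marker-sum-0 cells.

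Short sequence elements were more frequent in the promoters of the genes with the highest folds than over all tested genes. The cell cycle homology region (CHR, TTTGAA or TTCGAA) is bound by the complexes that time G2 and M transcription in mammals, often beside CCAAT boxes, which bind NF-Y. RefSeq promoter windows of 300 bases (250 before to 50 after the start, GRCm38.p6) were searched on both strands, so TTCAAA and ATTGG count as matches, and the letters of one motif do not occur in the other. A CHR match stood in 68.3% of 104 genes higher by at least 4-fold, in 32.9% of 520 higher by at least 1.5-fold, in 13.7% of 659 lower by at least 1.5-fold, in 14.2% of the 6699 tested genes with 1 promoter each and in 19.8% of all 22862 such promoters. For CCAAT the shares were 66.3%, 51.7%, 39%, 40.3% and 38.2%. By list, 20 of 25 spindle genes and 7 of 49 replication genes had a CHR match. A CCAAT match stood in 18 of those 25 spindle genes and in 32 of those 49 replication genes. A match is a description of letters and not a bound site.

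The 120 bases upstream of the start are shown for the 2 of 3 rule genes with both motifs in their windows, for Cdk1 and Top2a, for Gpsm2 and Arhgap19, which lie outside the cell cycle lists, and for Ung, which fell. Capitals mark these letters. Each reads 5′ to 3′ on the strand of its gene.
Ube2c, chr2:164769809-164769928, plus strand: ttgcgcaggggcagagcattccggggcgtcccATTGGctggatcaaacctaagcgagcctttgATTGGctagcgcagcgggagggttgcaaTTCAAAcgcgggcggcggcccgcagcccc
Cdc20, chr4:118437344-118437463, minus strand: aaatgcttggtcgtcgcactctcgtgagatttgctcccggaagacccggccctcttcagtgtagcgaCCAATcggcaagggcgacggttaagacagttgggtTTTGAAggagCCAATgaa
Cdk1, chr10:69352913-69353032, minus strand: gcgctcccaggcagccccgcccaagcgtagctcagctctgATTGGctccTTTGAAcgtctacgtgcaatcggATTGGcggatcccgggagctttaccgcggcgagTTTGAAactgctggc
Top2a, chr11:99024190-99024309, minus strand: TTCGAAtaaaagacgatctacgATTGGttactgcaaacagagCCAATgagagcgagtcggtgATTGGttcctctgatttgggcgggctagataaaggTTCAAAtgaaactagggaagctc
Gpsm2, chr3:108722300-108722419, minus strand: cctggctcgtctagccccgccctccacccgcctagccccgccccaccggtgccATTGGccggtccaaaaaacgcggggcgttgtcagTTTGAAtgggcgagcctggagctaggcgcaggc
Arhgap19, chr19:41802085-41802204, minus strand: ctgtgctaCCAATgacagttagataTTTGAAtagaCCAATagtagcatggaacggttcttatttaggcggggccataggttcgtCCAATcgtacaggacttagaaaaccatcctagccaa
Ung, chr5:114130315-114130434, plus strand: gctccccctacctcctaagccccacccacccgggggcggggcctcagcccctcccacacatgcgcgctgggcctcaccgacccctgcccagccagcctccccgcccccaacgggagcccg
In Ube2c, Cdc20, Top2a and Gpsm2 a CHR match lies within 33 bases of the start, and in Cdk1 the nearer of 2 lies 15 bases from it. Arhgap19 has its match further up, at 95 bases, and in the Ung stretch neither set of letters occurs.

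Within mitotic cells, CD8 and CD4 cells differed in cytotoxicity genes, and few genes of the mitotic lists differed once depth was equal. Of 9995 genes tested by edgeR's quasi-likelihood test, 1219 were higher in CD8 (12.2%) and 1311 lower (13.1%), of which 293 (2.93%) and 275 (2.75%) by at least 1.5-fold. With 413, 356, 389 and 391 cells per lineage matched on UMIs, 771 were higher (8.03%) and 815 lower (8.49%) of 9605. Spindle genes were lower in CD8 in 21 of 32 cases with none higher (median -0.18), but in 2 of 32 on matched cells (-0.04). Kinases and cyclins likewise had 11 of 17 lower over all cells, and on matched cells none lower and 1 higher. Replication genes were higher in CD8 in 51 of 74 cases with 1 lower (0.22), and in 15 of 74 with 1 lower on matched cells (0.09). Mki67, the proliferation antigen gene, was lower in both settings, at 730, 761, 765 and 663 CPM in CD8 mitotic cells, against 864, 883, 901 and 872 CPM in CD4 mitotic cells (log2 -0.27; -0.22 matched). CD8 mitotic cells held 8391554 to 9794337 UMIs per library and CD4 mitotic cells 5863868 to 8847293.

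Cytotoxicity genes were higher in CD8 mitotic cells in 15 of 17 cases with 1 lower, with a median of 0.60 and, on matched cells, 0.78. Gzma was at 8099, 7485, 9654 and 8709 CPM in CD8 mitotic cells, against 1187, 865, 613 and 1209 CPM in CD4 mitotic cells (log2 3.16). Prf1 was at 200, 162, 201 and 176 CPM, against 63.9, 42.2, 41.6 and 39.3 CPM (log2 1.98). Jaml, an adhesion molecule gene, was at 65.8, 59.3, 73.7 and 49.5 CPM, against 5.64, 2.61, 5.97 and 4.97 CPM (log2 3.65). Among receptors, Cd160 was at 117, 108, 97.8 and 118 CPM, against 18.5, 22.3, 19.8 and 24.6 CPM, and Cd244, the 2B4 gene, at 12.7, 13.6, 12.4 and 9.79 CPM, against 1.55, 1.30, 1.19 and 1.47 CPM. Ccl5 was at 556, 267, 867 and 632 CPM, against 142, 63.3, 145 and 147 CPM (log2 2.19). All these groups were separate across the 4 libraries.

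Other named genes were lower in CD8 than in CD4 mitotic cells. The inhibitory and costimulatory receptors as a list had 6 higher and 10 lower of 22 in CD8 (median -0.13), and on matched cells 6 and 9 (-0.03). Tnfrsf4, the OX40 gene, was at 71.7, 92.2, 97.1 and 88.0 CPM in CD8 mitotic cells, against 186, 221, 258 and 241 CPM in CD4 mitotic cells (log2 -1.38). Maf, a transcription factor gene of interleukin-10-producing and follicular helper cells, was at 75.8, 69.4, 77.5 and 64.7 CPM, against 161, 166, 192 and 168 CPM (log2 -1.26), and Il10 stood at -1.63. Cdkn1a was at 16.5, 20.02, 19.2 and 24.1 CPM, against 32.0, 43.8, 32.1 and 39.7 CPM (log2 -0.88). Lgals7, a galectin gene, was at 22.1, 48.9, 18.2 and 21.6 CPM, against 78.3, 165, 80.5 and 97.3 CPM. T cell receptor signalling genes were lower in CD8 in 20 of 32 cases with 3 higher, and naive and memory regulators in 13 of 21 with 2 higher.

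**Figure D5:**
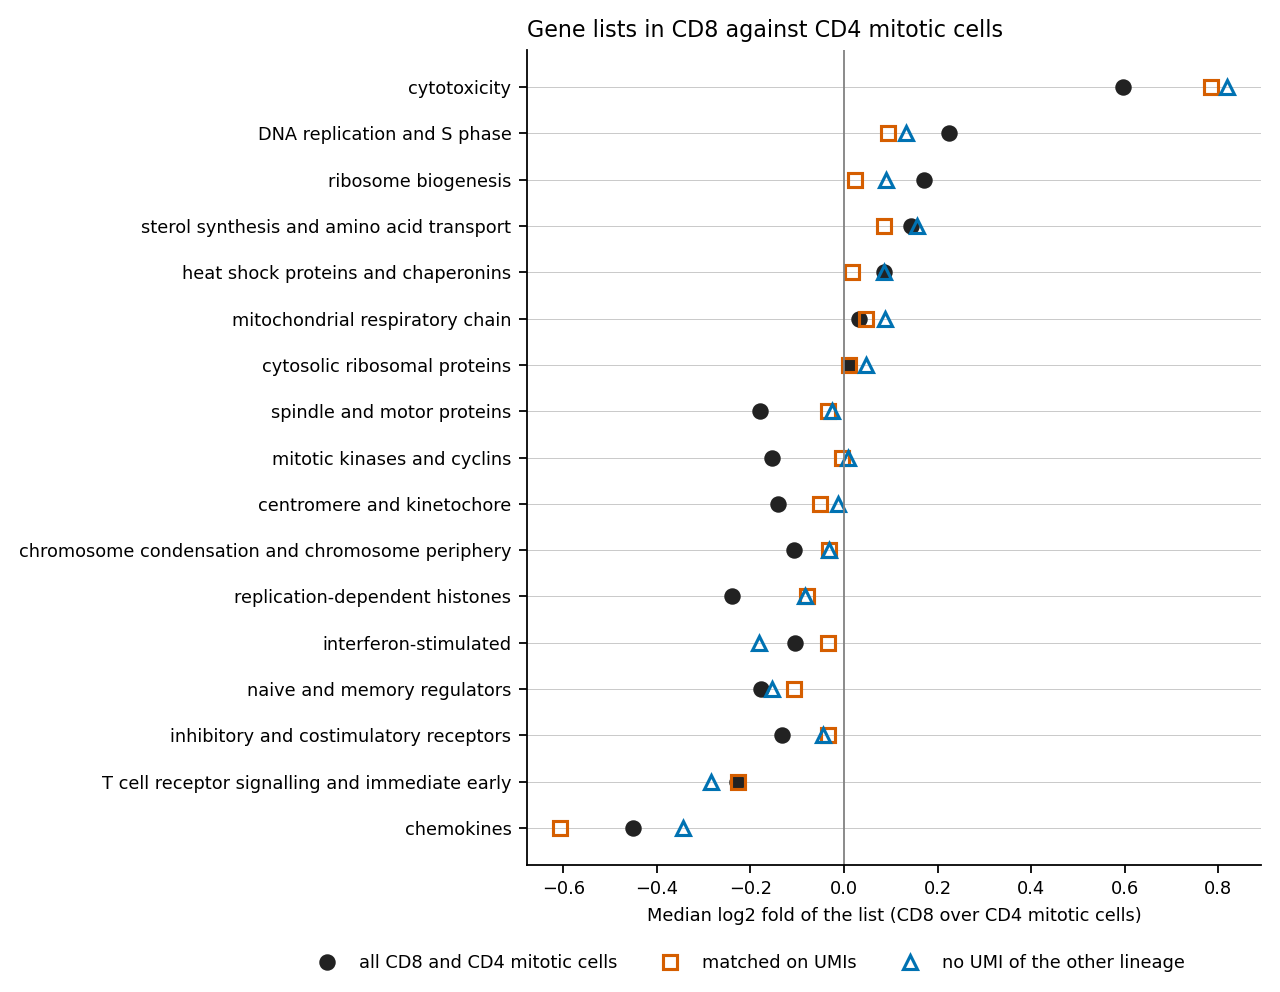
Median log2 difference of 17 gene lists in CD8 over CD4 mitotic cells, for all mitotic cells, for cells matched on total UMIs and for cells with no UMI of the other lineage. Cytotoxicity genes lie at 0.60, 0.78 and 0.82, and spindle genes move from -0.18 over all cells to -0.04 on matched cells.

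The difference between mitotic and marker-sum-0 cells was itself compared between CD8 and CD4 cells with an interaction term. Of 10142 genes tested, the log2 fold was higher in CD8 for 224 (2.21%) and lower for 578 (5.7%), of which 84 (0.828%) and 197 (1.94%) by at least 1.5-fold. The lower ones held much of the mitotic machinery: 14 of 17 kinases and cyclins, 23 of 32 spindle genes and 16 of 16 condensation genes, with none higher. Cenpf was at 447, 391, 472 and 388 CPM in CD8 mitotic cells, against 14.6, 15.6, 14.6 and 15.9 CPM in CD8 marker-sum-0 cells. In CD4 cells it was at 553, 492, 555 and 483 CPM, against 6.22, 8.48, 8.03 and 7.78 CPM (difference of log2 folds -1.32, edgeR quasi-likelihood adjusted p = 1.09e-07). Over all cells both ends differed, with a higher base in CD8 marker-sum-0 cells and a lower level in CD8 mitotic cells. CD8 mitotic cells were the deeper ones under the same cut of 20 UMIs. The 3 rule genes were lower in them than in CD4 mitotic cells too, with a median of -0.27. The part of depth in the lower end was not tested. Matching on UMIs within lineage kept 117, 103, 158 and 98 CD8 mitotic cells and 196, 185, 192 and 195 CD4 mitotic cells. Each set had as many marker-sum-0 cells of its lineage. On these fewer cells 14 genes were higher and 79 lower, and Cenpf stood at -1.02 (edgeR quasi-likelihood adjusted p = 0.043). The number of genes tested there is not given. The part of the lower cell number in the smaller counts was not tested. How many genes of the mitotic lists were among these 79 is not given.

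No test was made between Treg genotypes, each of which is 1 library, and sizes alone are given. Of 5077 genes averaging 20 CPM or more, those past 1.5-fold were 10 higher (0.197%) and 3 lower (0.0591%) in CD226KO over WT, 13 (0.256%) and 11 (0.217%) in DoubleKO over TIGITKO, 8 (0.158%) and 5 (0.0985%) in TIGITKO over WT, 4 (0.0788%) and 4 (0.0788%) in DoubleKO over CD226KO, and 9 (0.177%) and 6 (0.118%) in DoubleKO over WT. The median log2 ratio of the spindle list lay between -0.02 and 0.09 over these 5 contrasts, of the kinases and cyclins between -0.09 and 0.07, and of chemokines between 0.20 and 0.70. Single chemokines went both ways. In CD226KO over WT, Ccl3 stood at 1.31 and Ccl1 at -1.24, and in TIGITKO over WT Ccl5 stood at -1.16.

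A few of the genes past that size are given here, chosen after their values were seen. Ccl3 was at 112 CPM in the mitotic cells of CD226KO (95% Poisson interval 107 to 117, counting error only), 60.9 in TIGITKO (57.2 to 64.7), 78.8 in DoubleKO (74.7 to 83.0) and 44.4 in WT (41.6 to 47.4). Ccl4 was at 160, 94.1, 139 and 79.1 CPM in the same libraries. For both genes the libraries with CD226-/- Treg cells were the higher ones within each lane, and the same held in marker-sum-0 cells, where Ccl3 was at 237, 105, 195 and 108 CPM. In mitotic cells, Ccl1 of the same list went the other way within each lane. It was at 32.5 CPM in CD226KO, 87.3 in TIGITKO, 63.6 in DoubleKO and 78.2 in WT. In marker-sum-0 cells Ccl1 was at 183, 360, 183 and 162 CPM in the same libraries. There it was again lower in DoubleKO than in TIGITKO, but higher in CD226KO than in WT. Ccl5 in mitotic cells was at 346 CPM in CD226KO, 160 in TIGITKO, 545 in DoubleKO and 359 in WT. Ly6c2 was at 185, 91.9, 181 and 182 CPM in those cells, and both genes were lowest in TIGITKO. The histone transcript Hist1h2ap was at 1107 CPM in CD226KO, 955 in TIGITKO, 951 in DoubleKO and 1668 in WT, against 188, 228, 215 and 278 CPM in marker-sum-0 cells.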

How the data were processed

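The deposited values are UMI counts by gene and barcode, plus antibody counts for CD45.1 and CD45.2, and each library has its own filtered matrix from the authors. Cell Ranger 3.1.0 and mm10 are named in the submitters' processing notes, and strand settings are not given in the sources used here. Counts of the chosen cells were added up within each library and expressed per 1000000 UMIs of all genes (CPM), with 4 libraries as n. Nothing in the labels says that they are independent cultures or animals, so p-values measure only the spread between these libraries.

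A cell was CD8 where its Cd8a plus Cd8b1 UMIs exceeded its Cd4 UMIs, CD4 where the reverse held, and otherwise unresolved. Sums were tested by edgeR's quasi-likelihood test (version 4.0.16, R 4.3.3) after filterByExpr and TMM scaling, with library as a block, Benjamini-Hochberg adjustment over all genes tested and a threshold of 0.05. Classes of 1 library come from the same pool: their deviations from the class means correlated at 0.51, 0.58, 0.49 and 0.34 over 5039 genes, against at most 0.112 with another library, so library pairs them. The test was tested on simulated data. DESeq2 1.42.0 was an alternative. Python 3.11.15, NumPy 2.4.6, pandas 2.3.3, SciPy 1.17.1 and matplotlib 3.10.9 were used for the rest. Thinning drew 5000 UMIs from each cell, and matching paired cells within bins of 0.25 on the log2 of total UMIs. No doublet caller was run.

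The members and gene lists were chosen with earlier results of these data known. Named genes were the rule genes and Cenpf, the 2 highest and 2 lowest folds of each list, and outside the cell cycle lists the 15 highest and 15 lowest called genes averaging 20 CPM or more with 1 sign in 4 libraries (8 and 8 in the other comparisons). Genes in the comparison of Treg genotypes, Cdk1, Mki67 and the label markers lie outside that rule. Genotype contrasts used log2 of CPM plus 1 and no test. Promoter sequences came from RefSeq on GRCm38.p6.

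Some items are not reported here.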

Additional observations from a re-analysis of the deposited data

Results flagged for a closer look

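Of 10142 genes tested, the interaction term called 224 higher in CD8 (2.21%) and 578 lower (5.7%). From these, 16 are listed here, the 8 highest and 8 lowest outside the cell cycle lists. Each averaged 20 CPM or more with 1 sign in 4 libraries. The value given is the difference of log2 folds of mitotic against marker-sum-0 cells, CD8 over CD4 (edgeR quasi-likelihood with Benjamini-Hochberg adjustment). It was positive for Ccl1 (2.78), Izumo1r (1.38), Ccl3 (1.04), Igfbp7 (0.97), Tbc1d4 (0.93), Tnfsf8 (0.88), Lgals7 (0.78) and Gm13546 (0.75). It was negative for Arhgap19 (-1.54), C330027C09Rik (-1.35), Prr11 (-1.24), Gzmm (-1.18), Gpsm2 (-0.96), Lockd (-0.92), Ly6c2 (-0.92) and 2610318N02Rik (-0.76).

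Ccl1, the largest, was at 21.3, 54.6, 62.7 and 46.7 CPM in CD8 mitotic cells, against 6.04, 44.1, 38.4 and 9.18 CPM in CD8 marker-sum-0 cells. In CD4 cells it was at 51.8, 158, 86.5 and 113 CPM, against 364, 645, 323 and 293 CPM. Matching on UMIs within lineage kept only 98 to 158 CD8 and 185 to 196 CD4 mitotic cells per library. On those cells Ccl1 came to 0.34 and no longer passed, whereas Lockd, at -0.69, still did (edgeR quasi-likelihood adjusted p = 0.025). Of the 16 genes, 8 turned direction in that setting: Izumo1r (-0.92), Igfbp7 (-0.84), Tbc1d4 (-1.21), Tnfsf8 (-1.05), Lgals7 (-0.91), Gm13546 (-0.44), Gzmm (0.33) and Ly6c2 (0.033). None of these 8 passed there, and Lockd was the only gene of the 16 that did.

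Outside the conventional gate, 438 filtered barcodes had at least 20 UMIs of the 3 rule genes at a log2 antibody ratio of 2.2 or less. They entered no comparison above.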

How the results depend on the processing

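Of 132 values of named genes and comparisons, recomputed in 1777 alternatives, 1726 kept direction and side of the threshold, 36 no longer passed, 14 turned and 1 came to pass. The shares of mitotic cells (CD226KO, TIGITKO, DoubleKO, WT) were 19.5%, 18.3%, 18.2% and 22.4% at 15 UMIs, 8.77%, 6.29%, 8.20% and 11.9% at 30 UMIs, 18.7%, 17.3%, 15.6% and 21.9% at an antibody ratio above 3, 17.3%, 15.9%, 16.2% and 21.5% under a filter of 1000 genes and 5% mitochondrial UMIs, and 15.8% in TIGITKO and 15.3% in WT thinned. The log2 ratio of CD8 over CD4 shares turned to -0.33 thinned and ran from 0.148 to 0.208 with a library left out.

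Against marker-sum-0 cells, 2152 genes were lower by DESeq2, and 1922 were higher and 1879 lower within CD8 cells. A 1.5-fold limit, chosen after seeing the data, left 835 and 1091. Leaving out a library gave 3097 to 3282 higher and 2971 to 3192 lower. Against S-rich cells DESeq2 gave 1466 higher and 1565 lower, and leaving out a library 1910 to 2274 and 1978 to 2314. For CD8 over CD4 mitotic cells DESeq2 gave 412 and 515, the fit with no replicate block for the library 619 and 737, matching on UMIs (added after seeing the data) 771 and 815, and leaving out a library 913 to 1088 and 994 to 1155. For the interaction DESeq2 gave 91 higher, the fit without the replicate block 53 higher and 307 lower, matching (also added later) 14 and 79, and leaving out a library 91 to 157 and 382 to 513, both lowest without WT.

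Single values turned for Ccl1 (0.84) and Gzma (-0.29) within CD8 cells, for Ccl5 (0.29), Hsp90aa1 (-0.29) and Zwint (-0.22) on matched cells, for Zwint thinned (-0.096, which did not pass), and in the interaction on matched cells for Izumo1r (-0.92), Gzmm (0.33), Igfbp7 (-0.84), Tbc1d4 (-1.21), Tnfsf8 (-1.05), Lgals7 (-0.91), Gm13546 (-0.44) and Ly6c2 (0.033). The causes were not tested. Xcl1, at -0.80 against marker-sum-0 cells, no longer passed in 5 alternatives, one of them without TIGITKO (-0.35).

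The rule counts summed UMIs, and marker-sum-0 cells are shallower per cell than mitotic cells. How much of that gap came from the rule and how much from the cells themselves was not tested. The S-rich cells are few and rest on the lowest UMI totals. Every share and order between libraries rests on 1 library per genotype.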
